A study of Mus musculus with 10 samples.

Results

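The genes described here encode the amino acid transporters of 7 solute carrier families, *Slc1*, *Slc3*, *Slc6*, *Slc7*, *Slc36*, *Slc38* and *Slc43*. They were taken from the gene names of the expression table alone. Every name that consists of the family followed by the letter a and a number was included. No measured value decides membership under this rule, but the rule and the role lists below were chosen with earlier results of these data known. Of the 39273 genes listed, 60 were members. Of these, 7 belong to *Slc1*, 2 to *Slc3*, 19 to *Slc6*, 15 to *Slc7*, 3 to *Slc36*, 11 to *Slc38* and 3 to *Slc43*. A summed count of at least 10 over the 10 libraries was reached by 55 members, and these were tested. The other 5 members, *Slc38a5*, *Slc38a8*, *Slc6a3*, *Slc6a21* and *Slc7a15*, were at or near 0 throughout.

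Amino acids enter and leave epithelial cells through carriers that differ in substrate, in coupling to sodium, and in the face of the cell they occupy. Proliferating cells rely on carriers for glutamine, leucine, cystine and cationic amino acids that feed protein synthesis and mTORC1 signalling. The proximal tubule of the adult kidney instead recovers filtered amino acids, with sodium-coupled carriers in its brush border and exchangers or uniporters at its base. Several *Slc7* proteins reach the membrane only as light chains bound to a heavy chain, which is *Slc3a2* (4F2hc, CD98) or *Slc3a1* (rBAT).

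RNA-seq libraries of 5 groups were compared, with 2 libraries in each. Ureteric bud (UB) organoids were grown in UB culture medium from UBs dissected out of *Wnt11*-RFP mouse kidneys at E11.5 on a mixed C57BL/6 and Swiss Webster background, and were sampled after 5, 10 and 20 days. Collecting duct (CD) organoids were UB organoids of day 10 moved to CD differentiation medium for 7 days. Adult mCD were, in the study's own description, cells sorted for the Venus reporter of adult *Hoxb7*-Venus mice about 2 months old, whose transgene marks the UB lineage and the CD. The sample labels give this group the same embryonic source and reporter as the organoids, and its titles call the libraries adult mouse CD organoids. The study's description was followed. By that description, organoid and adult groups differ in age, reporter and culture at the same time. The study's description gives no strain background for the adult mice, so strain may differ as well. No source says whether the paired libraries came from separate cultures or animals, so that every p-value below measures only the spread between these libraries. The RNA is bulk, and fewer cells of a type cannot be told apart from less RNA per cell.

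Between 11913613 and 24536676 counts were recorded per library, and 3 counts, the limit used for detection, stood for between 0.109 and 0.241 normalised counts (CPM, counts scaled to library size). The UB marker *Ret* was at between 610.0 and 2100.3 CPM in UB organoids, and *Wnt11* fell from 376 and 496 CPM at day 5 to 19.2 and 22.7 at day 20. CD organoids held the principal cell marker *Aqp2* at 632 and 485 CPM and the intercalated cell regulator *Foxi1* at 508 and 472 CPM, although the vasopressin receptor *Avpr2* did not exceed 0.314 CPM in any library, adult mCD included. Adult mCD had *Aqp2* at 4542 and 4375 CPM, and also markers of nephron segments outside the CD. All 10 proximal tubule markers were called higher in adult mCD than in CD organoids (9.84% of all genes were), and their summed level was 4816 and 5717 CPM against between 7.12 and 37.5 CPM in the organoids. The 4 loop of Henle markers summed to between 3393 and 3595 CPM in adult mCD and to at most 11.3 CPM in the organoids, and the 4 endothelial markers to between 499.5 and 505.9 CPM against at most 2.45 CPM. The 4 stromal markers summed to between 103.2 and 216.1 CPM in CD organoids and to at most 29.0 CPM in UB organoids. *Xist* was at between 1967 and 2446 CPM at days 5 and 10, between 199.9 and 358.0 CPM at day 20, between 265.3 and 303.4 CPM in CD organoids and at most 1.96 CPM in adult mCD. Transcripts of 4 Y-linked genes summed to at most 0.875 CPM at days 5 and 10 and to between 229.8 and 294.9 CPM in the other groups, so that the sex of the source cannot be told apart from the group in most comparisons below. Mitochondrial genes took between 0.969% and 1.58% of the counts at days 5 and 10, between 3.10% and 3.39% at day 20 and in CD organoids, and between 9.64% and 9.86% in adult mCD.

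The group with the highest level differed between members. Of the 55 members tested, 25 had their highest group mean in adult mCD, 14 in UB organoids of day 5, 6 in CD organoids, 5 in UB organoids of day 10 and 5 in those of day 20. The same tally was not made over all genes, and for members near 0 it rests on few counts. A core of 16 members had a mean of at least 10 CPM in every group. It holds growth carriers such as *Slc38a2*, *Slc3a2*, *Slc1a5* and *Slc7a1*, the taurine and creatine carriers *Slc6a6* and *Slc6a8*, and 5 lysosomal or intracellular carriers. In contrast, 15 members stayed below 1 CPM in the mean of every group, 8 of them neurotransmitter or glutamate carriers of nervous tissue. Changes of more than 4-fold with an adjusted p up to 0.01 were called, and 32 members were called in at least 1 of the 5 comparisons (58.2% of those tested, against 29.5% of all genes).

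**Figure D1:**
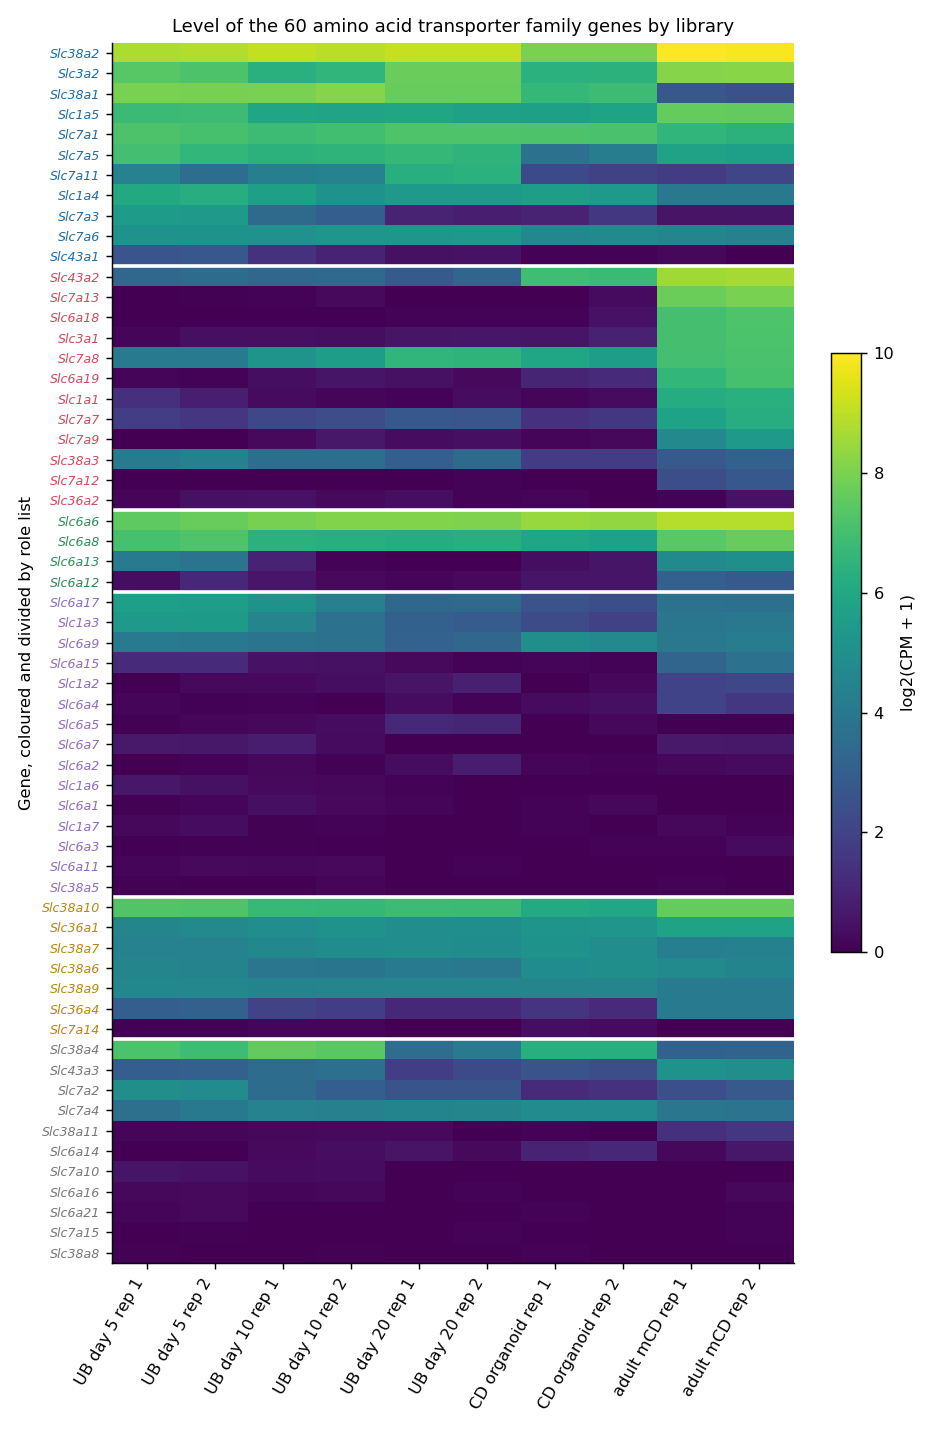
Level of all 60 members (rows, grouped and coloured by role) in each of the 10 libraries (columns), shown as log2(CPM + 1). The second block from the top holds the adult tubule carriers, of which most are dark in all 8 organoid libraries and bright in both adult mCD libraries, while *Slc38a1* and *Slc7a11* in the first block are dark in adult mCD.

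Levels of different genes were compared per length, as RPKM over the union of each gene's exons. *Slc38a2* (SNAT2), a sodium-coupled carrier of small neutral amino acids, stood first in UB organoids with a mean of 50.8 ± 1.67 RPKM (SD) at day 5, 58.2 ± 3.47 at day 10 and 63.4 ± 0.313 at day 20. The heavy chain *Slc3a2* came next at day 5 with 45.1 ± 4.26 RPKM and at day 20 with 58.8 ± 0.0942 RPKM. In CD organoids the taurine carrier *Slc6a6* led with 40.4 ± 1.02 RPKM, ahead of *Slc38a2* with 28.9 ± 0.0213 and *Slc3a2* with 23.6 ± 0.636. In adult mCD *Slc38a2* with 112.3 ± 6.07 RPKM and the aspartate and glutamate exchanger *Slc7a13* (AGT1) with 110.4 ± 12.6 RPKM did not differ beyond their spread, and *Slc3a2* followed with 83.2 ± 0.417 and *Slc3a1* with 60.1 ± 4.08.

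Of the 2 heavy chains, *Slc3a1* separated the adult cells from the organoids. *Slc3a1* (chr17:85028376-85064236 on GRCm38) is the heavy chain of the apical cystine and dibasic amino acid exchanger. It was at 0.0854 and 0.327 CPM at day 5, at 0.317 and 0.292 CPM at day 10 and at 0.425 and 0.529 CPM at day 20. CD organoids had 0.498 and 0.882 CPM and adult mCD 129.9 and 143 CPM. The 8 organoid libraries were all below 1 CPM and did not overlap with adult mCD, which were 186-fold above CD organoids (log2 fold change 7.54 ± 0.21 (SE), adjusted p = 7.89e-12). *Slc3a2* (chr19:8706882-8723369) is the heavy chain of the widely used exchangers. It was at 169.9 and 149 CPM at day 5, at 80.1 and 93.5 CPM at day 10 and at 207 and 208 CPM at day 20. In CD organoids it was at 81.6 and 84.8 CPM and in adult mCD at 293 and 295 CPM. It was abundant in every library, lowest in UB organoids of day 10 and CD organoids, and higher in adult mCD than in CD organoids (log2 fold change 1.82 ± 0.09 (SE), adjusted p = 1.31e-09). Against day 20 it was 1.41-fold higher in adult mCD (log2 fold change 0.50 ± 0.09 (SE), adjusted p = 0.00018). Neither difference passed 4-fold. On the RPKM scale, *Slc3a1* amounted to between 0.000781 and 0.0162 of *Slc3a2* in the organoid libraries and to 0.690 and 0.754 of it in adult mCD.

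*Slc3a1* divided organoids from adult cells, although *Slc7a13*, *Slc6a18* and *Slc1a1* had larger folds between adult mCD and CD organoids. Its promoter is shown because it holds a match to a motif searched for in the promoters. It is the window of 250 bases before the RefSeq start, on the plus strand at chr17:85028097-85028346 (GRCm38.p6), and the capitals mark a match to CAAAGTCCA, letters known from binding sites of HNF4 factors.
Slc3a1: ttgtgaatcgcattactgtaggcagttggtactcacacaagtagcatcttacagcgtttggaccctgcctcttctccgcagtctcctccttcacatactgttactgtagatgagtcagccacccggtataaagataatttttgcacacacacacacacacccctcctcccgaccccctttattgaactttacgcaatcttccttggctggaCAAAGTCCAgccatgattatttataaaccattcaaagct
The first capital lies 39 bases before the start. These letters occur on either strand in 0.38% of the 32851 promoter windows in the reference, and among the 42 members with a window only in that of *Slc3a1*. An HNF1 element searched for in the same way occurs in 0.37% of all windows and in no member's. The transcript of *Hnf4a* itself was at 0.481 CPM or less in the organoids and at 257 and 295 CPM in adult mCD. A match is a description of the sequence only, and binding was not measured.

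The light chains that pair with *Slc3a1* were likewise low in the organoids and high in adult mCD. *Slc7a13*, chr4:19818725-19842218, was recorded with at most 5 counts in any organoid library and with 2881 and 3249 counts in adult mCD, or 217 and 255 CPM. That is at least 982-fold above CD organoids (adjusted p = 1.25e-11) and at least 1191-fold above day 20 (adjusted p = 4.99e-12). *Slc7a9* (b0,+AT), the partner of *Slc3a1* in the cystine exchanger, stayed at or below 0.584 CPM in the organoids and reached 25.1 and 41.5 CPM in adult mCD, at least 138-fold above CD organoids (adjusted p = 2.92e-08). The adult libraries differed more from each other for *Slc7a9* than for *Slc3a1* or *Slc7a13*.

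Light chains of *Slc3a2* changed at different points. *Slc7a5* (LAT1; chr8:121881150-121907694) is the leucine and aromatic amino acid exchanger of growing cells. It was at 128 and 97.02 CPM at day 5, at 85.96 and 90.6 CPM at day 10 and at 99.1 and 90.4 CPM at day 20. The CD organoid libraries had 12.8 and 17.6 CPM, and the adult mCD libraries 53.6 and 49.6 CPM. CD organoids were the lowest group and overlapped with none of the others. The level in CD organoids was 5.82-fold below day 10 (log2 fold change -2.54 ± 0.15 (SE), adjusted p = 8.14e-09) and 6.25-fold below day 20 (log2 fold change -2.64 ± 0.15 (SE), adjusted p = 7.83e-09). Adult mCD were 3.40-fold above CD organoids (log2 fold change 1.77 ± 0.15 (SE), adjusted p = 3.92e-07), which is short of the 4-fold limit. *Slc7a8* (LAT2; chr14:54722209-54781946) is a neutral amino acid exchanger at the base of proximal tubule cells. It was at 15.97 and 15.8 CPM at day 5, at 35.4 and 46.2 CPM at day 10 and at 95.8 and 90.8 CPM at day 20. Values in CD organoids were 58.7 and 46.1 CPM, and those in adult mCD 127 and 141 CPM. Each UB organoid group lay above the one before it without overlap, and the level was 5.87-fold higher at day 20 than at day 5 (log2 fold change 2.55 ± 0.14 (SE), adjusted p = 8.84e-09). On the RPKM scale the ratio of *Slc7a5* to *Slc7a8* was 10.8 and 8.31 at day 5, 3.277 and 2.65 at day 10, 1.40 and 1.34 at day 20, 0.294 and 0.514 in CD organoids and 0.569 and 0.476 in adult mCD.

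The 2 light chains that exchange cationic for neutral amino acids also differed in course. *Slc7a6* (y+LAT2), the form found in many tissues, stayed between 19.3 and 39.01 CPM in all libraries. *Slc7a7* (y+LAT1), the basolateral form of kidney and gut, was at 2.48 and 1.96 CPM at day 5, at 3.53 and 4.19 CPM at day 10 and at 5.70 and 5.16 CPM at day 20. The level was 1.71 and 2.09 CPM in CD organoids and 54.05 and 73.97 CPM in adult mCD. All 8 organoid libraries lay below both adult ones, and adult mCD were 32.96-fold above CD organoids (log2 fold change 5.04 ± 0.21 (SE), adjusted p = 3.01e-10) and 11.7-fold above day 20 (log2 fold change 3.54 ± 0.18 (SE), adjusted p = 1.12e-09). The ratio of *Slc7a7* to *Slc7a6* in RPKM was between 0.0785 and 0.207 in the organoids and 3.33 and 5.29 in adult mCD. The serine and alanine exchanger *Slc7a10* had at most 11 counts in any library, with 11 and 10 counts at day 5, 6 and 7 at day 10 and 0 in the other 6 libraries. It was called lower at day 20 than at day 5, by at least 2.21-fold (adjusted p = 0.0043), and this call was lost without any 1 of the 4 libraries.

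**Figure D2:**
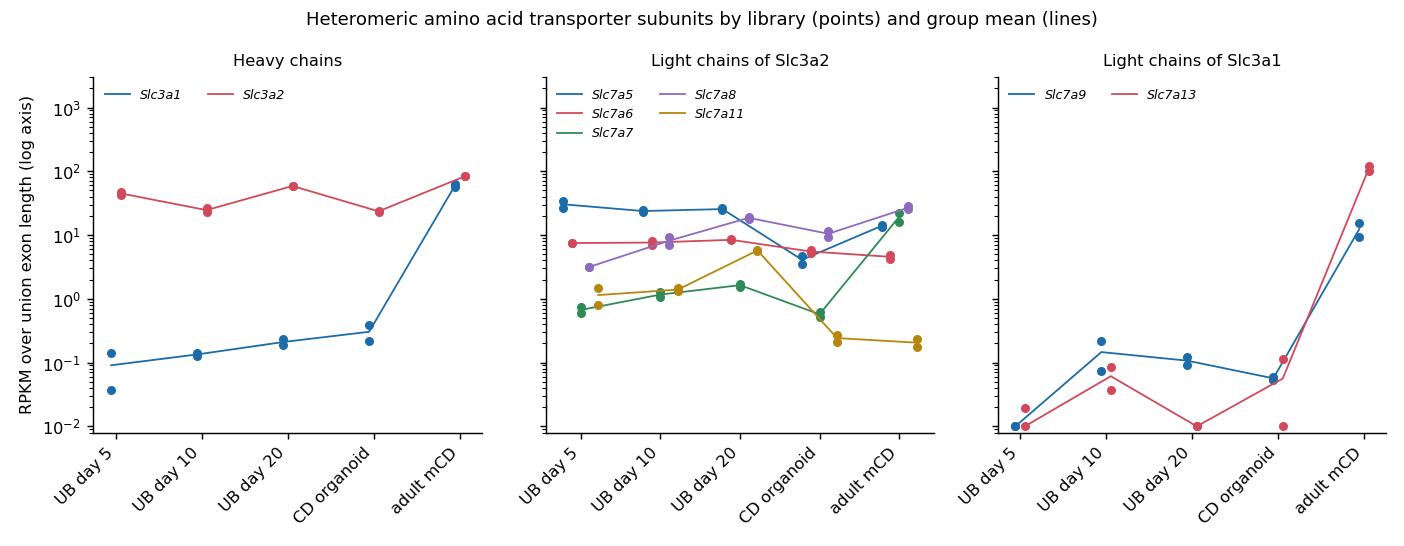
RPKM over union exon length (log axis) of the heavy chains, the light chains of *Slc3a2* and the light chains of *Slc3a1*, by library (points) and group mean (lines); values under 0.01, zeros included, are drawn at 0.01. *Slc3a1*, *Slc7a9* and *Slc7a13* sit below 1 RPKM in all organoid libraries and above 9 RPKM in adult mCD, and the line of *Slc7a5* crosses below that of *Slc7a8* between day 20 UB organoids and CD organoids.

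The cystine and glutamate exchanger had a peak of its own. *Slc7a11* (xCT; chr3:49892526-50443614) imports the cystine used for glutathione. It was at 20.6 and 11.3 CPM at day 5, at 18.4 and 20.5 CPM at day 10 and at 77.9 and 81.8 CPM at day 20. CD organoids had 3.77 and 2.97 CPM and adult mCD 2.41 and 3.30 CPM. Both libraries of day 20 stood above all 8 others. Day 20 was 5-fold above day 5 (log2 fold change 2.32 ± 0.20 (SE), adjusted p = 7.15e-07), a change of 1.95 on the log2 scale and below the 4-fold limit without the second library of day 5. CD organoids were 23.2-fold below day 20 (log2 fold change -4.54 ± 0.26 (SE), adjusted p = 7.03e-09) and 5.66-fold below day 10 (log2 fold change -2.50 ± 0.26 (SE), adjusted p = 2.55e-06). Adult mCD were 27.5-fold below day 20 (log2 fold change -4.78 ± 0.26 (SE), adjusted p = 2.14e-09), and the values of CD organoids and adult mCD overlapped.

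*Slc7a11* is a known target of the amino acid response, in which ATF4 binds composite C/EBP and ATF sites. Its window of 250 bases before the RefSeq start, on the minus strand at chr3:50443614-50443863 (GRCm38.p6), is shown because it holds such letters more than once, with TGATGCAA and its reverse complement TTGCATCA in capitals.
Slc7a11: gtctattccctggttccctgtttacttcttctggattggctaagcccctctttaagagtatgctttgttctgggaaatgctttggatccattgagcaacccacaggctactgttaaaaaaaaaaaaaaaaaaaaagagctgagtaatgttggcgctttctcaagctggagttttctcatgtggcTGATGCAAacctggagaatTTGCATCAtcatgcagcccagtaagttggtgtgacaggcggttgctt
The first capitals of these matches lie 66 and 47 bases before the start, and the matches face each other without overlapping. TGATGCAA occurs on either strand in 0.79% of all windows and, among the members, also in a window of *Slc7a7*. The looser letters TGATGNAA, which include it, occur in 3.45% of all windows and add *Slc6a21* among the members. The motifs were chosen after the values were seen, and no window was given for 18 members.

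Genes of the amino acid response outside the transporter families moved differently from *Slc7a11* between days 5 and 20. Of 18 listed genes, all tested, 2 were called lower at day 20 and none higher (11.1% and 0%, against 3.93% and 4.68% of all genes). With an adjusted p up to 0.05 and no fold limit 13 were lower and 2 higher (72.2% and 11.1%, against 24.6% and 20.6%). *Asns*, the asparagine synthetase, was at 198 and 161 CPM at day 5 and 58.1 and 61.02 CPM at day 20 (log2 fold change -1.59 ± 0.10 (SE), adjusted p = 3.28e-08), while *Atf4* itself was at 279 and 267 CPM and 338 and 362 CPM (log2 fold change 0.36 ± 0.08 (SE), adjusted p = 0.0018). In CD organoids against day 20, 16 of the 18 passed that looser limit in either direction (88.9% against 42.2%), 14 of them lower and 2 higher. The directions were not tallied apart over all genes at that limit. The median log2 fold change of the 18 was -1.32, against 0.00 for all genes. With the 4-fold limit 2 were called lower in CD organoids (11.1% against 4.73%) and 1 higher (5.56% against 4.74%). *Asns* then stood at 16.02 and 18.7 CPM (log2 fold change -1.78 ± 0.11 (SE), adjusted p = 2.03e-08) and *Atf4* at 149 and 153 CPM (log2 fold change -1.21 ± 0.08 (SE), adjusted p = 3.15e-08). *Phgdh*, the first enzyme of serine synthesis, fell from 113 and 118 CPM to 27.5 and 31.7 CPM (log2 fold change -1.97 ± 0.11 (SE), adjusted p = 5.19e-09).

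CD organoids were compared with UB organoids of 2 days. The sequenced day 10 libraries had Y-linked transcripts at no more than 0.875 CPM, and CD organoids at 290.3 and 294.9 CPM. Depth differed as well, at 22858971 and 24536676 counts for day 10 and 13554738 and 11913613 for CD organoids. Differentiation cannot be told apart from these differences in the comparison with day 10. Against day 10, the stage from which CD organoids were made, 2 members were called higher in CD organoids (3.64% of the 55 tested, against 4.96% of all 24410 genes tested) and 9 lower (16.4% against 5.71%). With an adjusted p up to 0.05 and any fold, 10 members were higher (18.2% against 22.1% of all genes) and 19 lower (34.5% against 25.2%). Against day 20, 2 members were called higher (3.64% against 4.74%) and 3 lower (5.45% against 4.73%), with 25 past the looser limit in either direction (45.5% against 42.2%). Both comparisons share the CD organoid libraries. Of the 11 growth carriers, 4 were called lower and none higher against day 10, where their median log2 fold change was -1.01 against -0.14 for all genes. These were *Slc7a5*, *Slc7a11*, *Slc7a3* and *Slc43a1*. Against day 20, 2 of the 11 were called lower, *Slc7a5* and *Slc7a11*, and none higher, with a median of -0.935 against 0.00 for all genes. That median was -0.661 with the 1 member at or under 3 counts in 1 group set to its bound. *Slc7a3* did not pass the test there (log2 fold change 0.71 ± 0.40 (SE), adjusted p = 0.183).

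The member called higher in CD organoids against both days was *Slc43a2* (LAT4; chr11:75531694-75577575), a uniporter through which branched-chain and aromatic amino acids leave epithelial cells at their base. It was at 9.27 and 10.7 CPM at day 5, at 8.88 and 9.56 CPM at day 10 and at 6.07 and 8.53 CPM at day 20. In CD organoids it was at 121 and 110.2 CPM and in adult mCD at 383 and 403 CPM. The 6 UB organoid libraries formed a narrow low band, CD organoids lay above all of them, and adult mCD above CD organoids. CD organoids were 12.5-fold above day 10 (log2 fold change 3.64 ± 0.12 (SE), adjusted p = 3.26e-11) and 15.8-fold above day 20 (log2 fold change 3.98 ± 0.13 (SE), adjusted p = 4.88e-11). Adult mCD were 53.6-fold above day 20 (log2 fold change 5.75 ± 0.13 (SE), adjusted p = 7.87e-13). Its relatives did not share this course. *Slc43a1* (LAT3), a leucine uniporter, was at 5.17 and 5.59 CPM at day 5, at 1.67 and 1.02 CPM at day 10 and at 0.364 and 0.397 CPM at day 20. The CD organoid libraries had 0.0712 and 0.0802 CPM, and the adult mCD libraries 0.151 and 0 CPM. There were 1 and 1 counts in CD organoids and 2 and 0 in adult mCD, and CD organoids were at least 5.58-fold lower than at day 10 (adjusted p = 0.000173). *Slc43a3*, which carries purine nucleobases, was at 7.003 and 7.47 CPM at day 5, at 10.5 and 11.5 CPM at day 10 and at 2.61 and 3.70 CPM at day 20. Values in CD organoids were 4.91 and 4.33 CPM, and those in adult mCD 33.02 and 29.8 CPM. Both adult libraries were above all others (log2 fold change 2.75 ± 0.17 (SE), adjusted p = 1.49e-08 against CD organoids).

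*Slc6a18* (B0AT3), a neutral amino acid carrier of the proximal tubule brush border, was the other member called higher in CD organoids than at day 10. The call rests on 1 and 5 counts in CD organoids against 0 in both libraries of day 10, which is at least 1.99-fold (adjusted p = 0.0072), and it was lost without the second CD organoid library (log2 fold change 1.24), without either day 10 library, and with a prior count of 5. The related carrier *Slc6a19* (B0AT1), the main sodium-coupled carrier of neutral amino acids in kidney and gut, had 15 and 16 counts in CD organoids and 7 and 13 at day 10 (log2 fold change 1.497 ± 0.40 (SE), adjusted p = 0.00654), which did not pass 4-fold. Proximal tubule markers summed to between 7.12 and 13.2 CPM in CD organoids and to between 11.4 and 18.1 CPM at day 10. Their part in these small values was not tested.

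**Figure D3:**
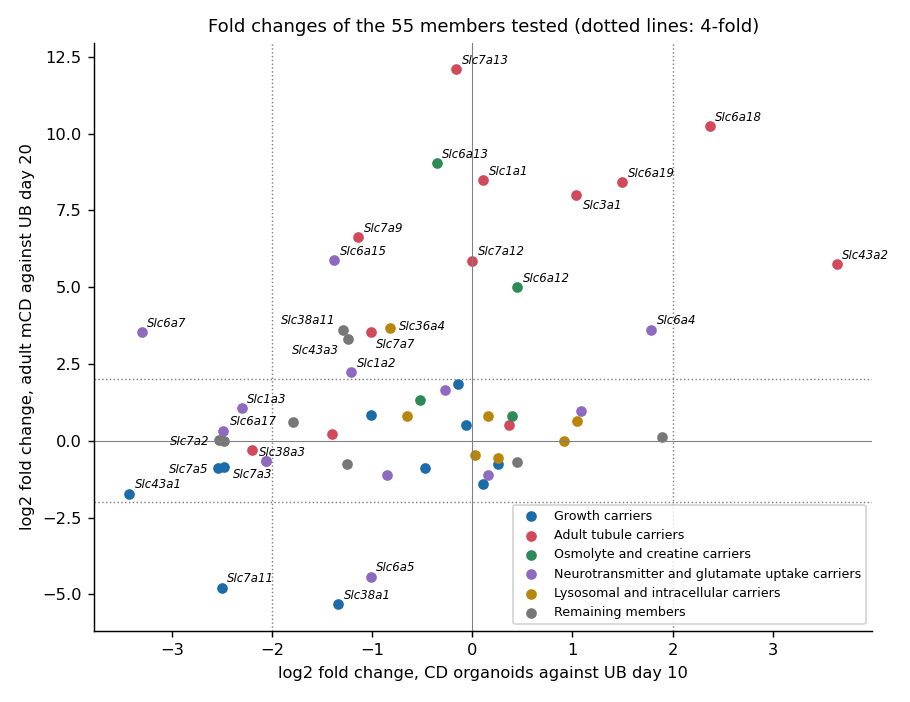
Log2 fold changes of the 55 members tested, CD organoids against day 10 UB organoids (horizontal axis) and adult mCD against day 20 UB organoids (vertical axis), coloured by role, with names for members called in either and dotted lines at 4-fold. *Slc43a2* lies far to the upper right, *Slc7a11* and *Slc38a1* lie low on the left, and most of the adult tubule carriers lie above the horizontal line at no change; values of members near 0 counts depend on the prior count and are not bounds.

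More members were called lower than higher at day 20 against day 5. In this comparison 12 members were called lower (21.8% of those tested, against 3.93% of all genes) and 4 higher (7.27% against 4.68%). At the looser limit 25 were lower (45.5% against 24.6%) and 14 higher (25.5% against 20.6%). The 4 called higher were *Slc7a8* and *Slc7a11*, with their values above, and *Slc6a5* and *Slc6a14*, neither of which exceeded 1.20 CPM in any library. Without the first library of day 5, 2 were called higher. Depth differed between these groups, at 23252740 and 24533020 counts for day 5 and 14953162 and 14100815 for day 20. Y-linked transcripts differed too, at no more than 0.0854 CPM at day 5 and at 229.8 and 259.3 CPM at day 20. Culture time cannot be told apart from these differences.

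The cationic amino acid carriers included one of the steepest falls. *Slc7a3* (CAT3) is an arginine and lysine carrier of embryonic tissue and brain. It was at 45.5 and 40.3 CPM at day 5, at 10.03 and 6.97 CPM at day 10 and at 0.971 and 0.793 CPM at day 20. The level was 0.926 and 2.09 CPM in CD organoids and 0.452 and 0.472 CPM in adult mCD. Each UB organoid group was below the one before it without overlap, and day 20 was 45.7-fold below day 5 (log2 fold change -5.51 ± 0.28 (SE), adjusted p = 5.85e-09). *Slc7a3* is 1 of 4 members on the X chromosome, beside *Slc6a8*, *Slc6a14* and *Slc38a5*, and the *Xist* level also fell between these days. The part of this difference in the values was not tested. CD organoids were below day 10 (log2 fold change -2.48 ± 0.28 (SE), adjusted p = 5.28e-06), but the log2 fold change was -1.996 and under the 4-fold limit without the first CD organoid library. *Slc7a2* (CAT2) took a like course, at 29.4 and 27.1 CPM at day 5, at 10.6 and 6.97 CPM at day 10 and at 5.10 and 5.02 CPM at day 20. CD organoids had 1.28 and 1.68 CPM and adult mCD 4.45 and 5.90 CPM. There too day 20 was below day 5 (log2 fold change -2.47 ± 0.21 (SE), adjusted p = 4.81e-07) and CD organoids were below day 10 (log2 fold change -2.53 ± 0.26 (SE), adjusted p = 2.06e-06). *Slc7a1* (CAT1), the general carrier of these amino acids, stayed between 84.5 and 153 CPM in every library and passed 4-fold in no comparison.

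Among the *Slc38* carriers, *Slc38a2* was at 439 and 459.6 CPM at day 5, at 536 and 493 CPM at day 10 and at 562 and 559 CPM at day 20. In CD organoids it was at 256 and 255 CPM and in adult mCD at 1030.4 and 955 CPM. CD organoids were 2.01-fold below day 10 (log2 fold change -1.01 ± 0.07 (SE), adjusted p = 7.13e-08), and adult mCD were 3.88-fold above CD organoids (log2 fold change 1.96 ± 0.08 (SE), adjusted p = 1.21e-10), neither past 4-fold. *Slc38a1* (SNAT1; chr15:96571418-96642913) takes up glutamine. It was at 250.4 and 247 CPM at day 5, at 254 and 286 CPM at day 10 and at 202 and 206 CPM at day 20. The CD organoid libraries had 100.05 and 114 CPM, and the adult mCD libraries 5.50 and 4.64 CPM. All organoid libraries lay far above both adult ones, with CD organoids between UB organoids and adult mCD. The fall was 20.8-fold from CD organoids (log2 fold change -4.38 ± 0.12 (SE), adjusted p = 6.95e-12) and 39.8-fold from day 20 (log2 fold change -5.32 ± 0.12 (SE), adjusted p = 7.31e-13). The RPKM ratio of *Slc38a1* to *Slc38a2* was between 0.185 and 0.298 in the organoids and 0.00274 and 0.00249 in adult mCD. Both genes and *Slc38a4* lie on chromosome 15 in the annotation used, at chr15:96687392-96699730 for *Slc38a2* and chr15:96994820-97055956 for *Slc38a4*.

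*Slc38a4* (SNAT4), which is imprinted in mouse and expressed in placenta and liver, had an uneven course. It was at 142 and 119 CPM at day 5, at 192 and 172 CPM at day 10 and at 10.98 and 15.9 CPM at day 20. Values in CD organoids were 76.5 and 76.4 CPM, and those in adult mCD 7.69 and 8.10 CPM. Days 5 and 10 were high, day 20 and adult mCD were low, and CD organoids lay between them with no overlap. Day 20 was 9.73-fold below day 5 (log2 fold change -3.28 ± 0.14 (SE), adjusted p = 1.48e-09). CD organoids were 5.70-fold above day 20 (log2 fold change 2.51 ± 0.14 (SE), adjusted p = 6.04e-09) and 2.38-fold below day 10 (log2 fold change -1.25 ± 0.12 (SE), adjusted p = 9.68e-07). Adult mCD were 9.63-fold below CD organoids (log2 fold change -3.27 ± 0.15 (SE), adjusted p = 8.13e-10). *Slc38a3* (SNAT3), a glutamine carrier of the base of the proximal tubule and listed here with the adult tubule carriers, fell in CD organoids from 11.3 and 11.2 CPM at day 10 to 2.42 and 2.41 (log2 fold change -2.20 ± 0.23 (SE), adjusted p = 1.91e-06) and was no higher than 7.70 CPM in adult mCD, below both libraries of day 5 at 15.97 and 19.8 CPM.

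**Figure D4:**
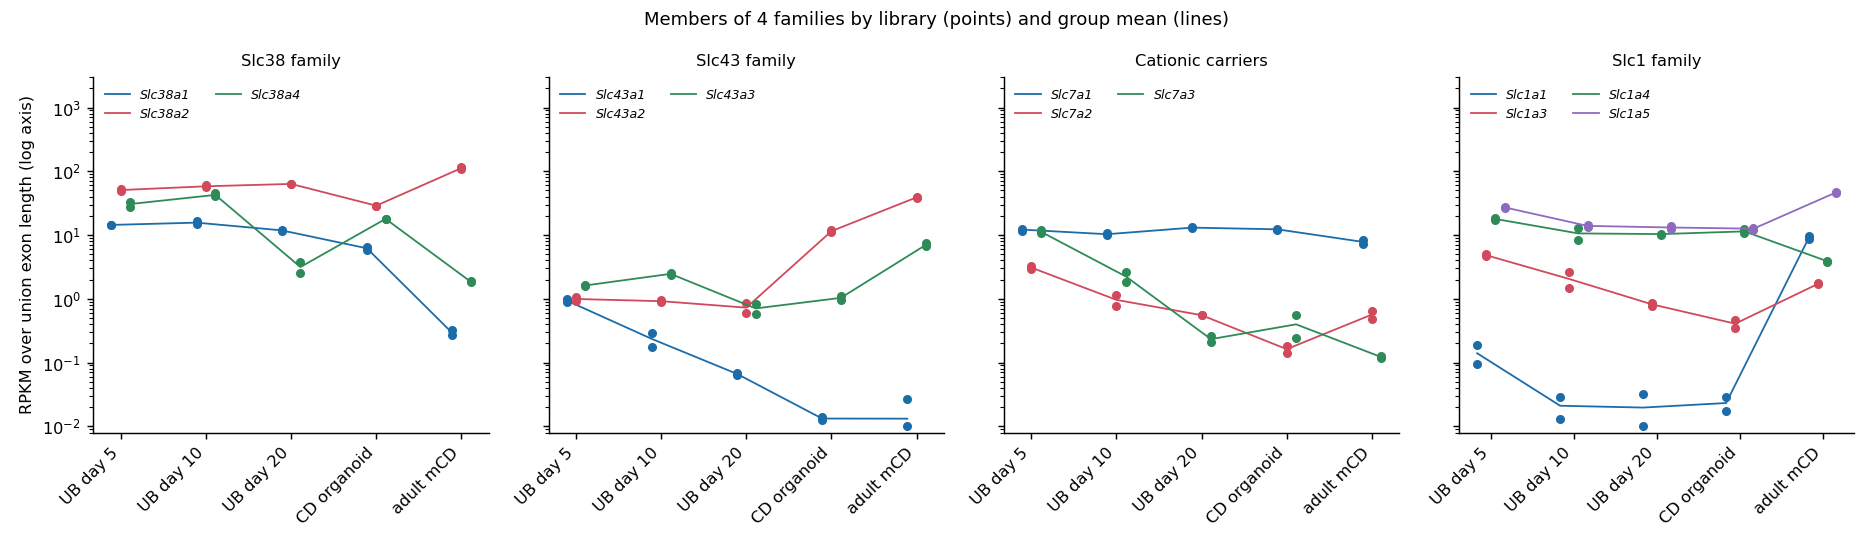
RPKM over union exon length (log axis) of 3 *Slc38*, 3 *Slc43*, 3 cationic (*Slc7a1* to *Slc7a3*) and 4 *Slc1* carriers, by library (points) and group mean (lines); values under 0.01 are drawn at 0.01. In adult mCD *Slc38a1* lies far below its organoid level and *Slc38a2* above its own, and in CD organoids *Slc43a2* lies above and *Slc43a1* below their levels in UB organoids.

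Adult mCD were compared with CD organoids and with day 20 UB organoids, to place the organoids beside mature cells; both comparisons share the adult libraries. Against CD organoids, 18 members were called higher in adult mCD (32.7% of those tested, against 9.84% of all genes) and 2 lower (3.64% against 4.50%). At the looser limit 31 were higher (56.4% against 26.1%) and 11 lower (20.0% against 23.8%). Against day 20, 18 were called higher (32.7% against 12.3%) and 3 lower (5.45% against 6.89%), and at the looser limit 29 were higher (52.7% against 29.3%) and 12 lower (21.8% against 27.1%). Of the 12 adult tubule carriers, 8 were called higher against CD organoids and 9 against day 20, and none lower. Their median log2 fold changes were 6.55 and 6.24, or 5.81 and 6.18 with members at or under 3 counts in 1 group set to their bound, against 0.00 and -0.06 over all genes. The 11 growth carriers had no call higher and 1 call lower against CD organoids, *Slc38a1*, and 2 lower against day 20, *Slc38a1* and *Slc7a11*. At the looser limit 4 were higher against CD organoids, *Slc38a2*, *Slc1a5*, *Slc3a2* and *Slc7a5*, and 4 lower (36.4% each, against 26.1% and 23.8% of all genes). Against day 20, 3 were higher and 7 lower at that limit (27.3% and 63.6%, against 29.3% and 27.1%).

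The apical carriers of the proximal tubule were also low in the organoids and high in adult mCD. *Slc6a19* did not exceed 1.28 CPM in the organoids and was at 96.9 and 136 CPM in adult mCD, 94.95-fold above CD organoids (log2 fold change 6.57 ± 0.23 (SE), adjusted p = 3.91e-11). *Slc6a18* reached at most 0.401 CPM in the organoids and 131 and 152 CPM in adult mCD (log2 fold change 8.98 ± 0.25 (SE), adjusted p = 7.92e-11 against CD organoids). *Slc1a1* (EAAC1) is the glutamate and aspartate carrier of the brush border. It was at 1.54 and 0.776 CPM at day 5, at 0.238 and 0.109 CPM at day 10 and at 0.0607 and 0.264 CPM at day 20. The level was 0.142 and 0.241 CPM in CD organoids and 72.7 and 80.02 CPM in adult mCD. Within the organoids, *Slc1a1* was 5.67-fold lower at day 20 than at day 5 (log2 fold change -2.50 ± 0.50 (SE), adjusted p = 0.000945), from 36 and 19 counts to 1 and 4, a call that was lost without the first library of either day. Adult mCD were at least 317-fold above CD organoids for *Slc1a1* (adjusted p = 1.41e-10).

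Partners of these carriers that lie outside the families were measured as well. Of the 8 genes reported, 4 were called higher in adult mCD against CD organoids and 4 against day 20, where 9.84% and 12.3% of all genes were, and none lower. *Cltrn* (collectrin), which brings *Slc6a18* and *Slc6a19* to the renal brush border, was at most 1.93 CPM in the organoids and 295 and 359.6 CPM in adult mCD (log2 fold change 7.40 ± 0.20 (SE), adjusted p = 6.95e-12). The proline carriers *Slc6a20a* and *Slc6a20b* were at 8.44 and 12.03 CPM and 70.7 and 78.2 CPM there, with at most 0.198 and 0.425 CPM in the organoids. *Slc16a10* (TAT1), which exports aromatic amino acids, differed from these in being present in the organoids, at 2.31 and 2.86 CPM at day 5, 17.7 and 16.8 at day 20, 13.7 and 12.8 in CD organoids and 64.1 and 71.1 in adult mCD. It was called higher at day 20 than at day 5 (log2 fold change 2.71 ± 0.15 (SE), adjusted p = 1.08e-08). The peptide carrier *Slc15a1* (PEPT1) was at 0 and 0 CPM at day 20, 0.498 and 0.642 in CD organoids and 0.377 and 0.865 in adult mCD, and it was called higher than day 20 in both, with adjusted p = 0.00353 and 0.00195.

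Proximal tubule markers, like most adult tubule carriers, were higher in adult mCD than in the organoids. Of these carriers, *Slc7a8*, *Slc38a3* and *Slc36a2* were called in neither adult comparison. Markers and carriers also differed between the 2 adult libraries. *Slc34a1*, the phosphate carrier of the proximal tubule, was at 1419 and 1743 CPM in adult mCD and at most 2.33 CPM in the organoids, and *Lrp2* (megalin) at 1028 and 1188 CPM and at most 32.8 CPM. Among genes with at least 50 counts, all 10 proximal tubule markers were higher in the second adult library than in the first, with ratios from 1.10 to 1.62 and a median of 1.18. All 11 adult tubule carriers with that many counts were higher there as well, with ratios from 1.05 for *Slc43a2* to 1.65 for *Slc7a9* and a median of 1.18. None of 7 principal cell markers was higher in the second library, with ratios from 0.873 to 0.981, and 2 of 8 growth carriers were. Of 8 intercalated cell markers 5 were higher in the second library, with ratios from 0.972 to 1.088 and a median of 1.03, as were 4 of 6 lysosomal and 3 of 4 neurotransmitter carriers. The part of proximal tubule RNA in the adult values was not tested. *Slc43a2* was also at 121 and 110.2 CPM in CD organoids, where *Slc34a1* was at 0.641 and 2.33 CPM and *Lrp2* at 4.91 and 5.29 CPM.

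**Figure D5:**
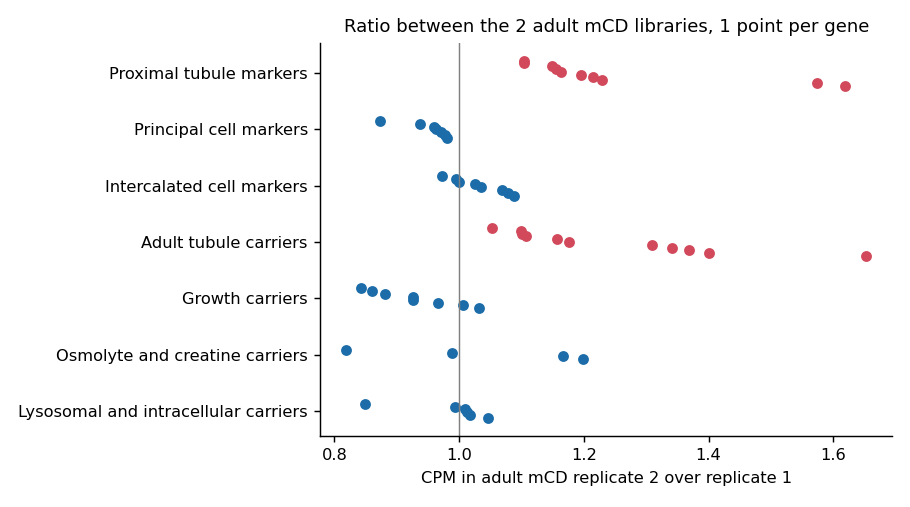
Ratio of CPM in the second adult mCD library to the first, 1 point per gene with at least 50 counts, for markers of 3 cell types and 4 groups of members; the vertical line marks 1. All proximal tubule markers and all adult tubule carriers plotted lie to the right of the line, from 1.05 to 1.65, and all principal cell markers to its left.

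The carriers of osmolytes and creatine were another group with adult calls. *Slc6a6* (TauT), the taurine carrier, was at 185 and 202 CPM at day 5, at 247 and 271 CPM at day 10 and at 271 and 269 CPM at day 20. CD organoids had 348 and 336 CPM and adult mCD 477 and 472 CPM. It was higher at day 20 than at day 5 (log2 fold change 0.48 ± 0.07 (SE), adjusted p = 0.000127), in CD organoids than at day 10 (log2 fold change 0.40 ± 0.07 (SE), adjusted p = 0.000477) and in adult mCD than in CD organoids (log2 fold change 0.47 ± 0.07 (SE), adjusted p = 0.000116), in no case by 4-fold. The creatine carrier *Slc6a8* was at 136 and 151 CPM at day 5, at 82.3 and 76.3 CPM at day 10 and at 71.8 and 75.6 CPM at day 20. In CD organoids it was at 58.7 and 52.1 CPM and in adult mCD at 172 and 201 CPM. It was lowest in CD organoids. *Slc6a13* (GAT2; chr6:121300227-121337733) carries GABA, betaine and taurine. It was at 16.7 and 12.9 CPM at day 5, at 0.952 and 0.0729 CPM at day 10 and at 0 and 0 CPM at day 20. The CD organoid libraries had 0.285 and 0.481 CPM, and the adult mCD libraries 25.7 and 30.8 CPM. It was present at the start and in the adult, and at or near 0 between. It was at least 74.6-fold lower at day 20 than at day 5 (adjusted p = 1.32e-06) and at least 142-fold higher in adult mCD than at day 20 (adjusted p = 1.13e-07). The libraries of day 10 differed, with 24 and 2 counts. The betaine carrier *Slc6a12* (BGT1), which serves the renal medulla, was at most 1.14 CPM in the organoids and at 7.39 and 6.05 CPM in adult mCD (log2 fold change 3.64 ± 0.52 (SE), adjusted p = 4.49e-05 against CD organoids).

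Glutamate and neurotransmitter carriers at measurable level were few, and they differed in course. *Slc1a3* (GLAST) is a glutamate and aspartate carrier known from glia. It was at 40.1 and 42.3 CPM at day 5, at 22.5 and 12.5 CPM at day 10 and at 7.34 and 6.61 CPM at day 20. Values in CD organoids were 3.99 and 2.97 CPM, and those in adult mCD 14.3 and 15.1 CPM. Days 5, 10 and 20 and CD organoids each lay below the one before without overlap, with day 20 5.87-fold below day 5 (log2 fold change -2.55 ± 0.23 (SE), adjusted p = 7.75e-07). CD organoids were below day 10 (log2 fold change -2.30 ± 0.26 (SE), adjusted p = 4.63e-06), and adult mCD were above CD organoids (log2 fold change 2.06 ± 0.27 (SE), adjusted p = 2.02e-05). These changes were -1.80 without the first day 10 library and 1.88 without the second CD organoid library, both then under 4-fold. *Slc6a17* (NTT4), a vesicular carrier of neutral amino acids in neurons, was at 48.5 and 47.6 CPM at day 5, at 33.5 and 19.3 CPM at day 10 and at 9.35 and 9.85 CPM at day 20. The level was 4.91 and 4.33 CPM in CD organoids and 12.2 and 11.9 CPM in adult mCD. Day 20 was below day 5 (log2 fold change -2.32 ± 0.20 (SE), adjusted p = 6.93e-07) and CD organoids were below day 10 (log2 fold change -2.49 ± 0.23 (SE), adjusted p = 6.4e-07). *Slc1a4* (ASCT1) and *Slc1a5* (ASCT2), neutral amino acid exchangers of the same family that count as growth carriers, kept to between 15 and 73.3 CPM and between 50.5 and 199.5 CPM. For *Slc1a5*, which imports glutamine, day 20 was 2.07-fold below day 5 (log2 fold change -1.05 ± 0.07 (SE), adjusted p = 1.18e-07) and adult mCD were 3.73-fold above CD organoids (log2 fold change 1.90 ± 0.08 (SE), adjusted p = 1.81e-10). *Slc6a9* (GlyT1), a glycine carrier, took another course, at 16.4 and 15.6 CPM at day 5, at 13.3 and 12.7 CPM at day 10 and at 7.83 and 8.92 CPM at day 20. CD organoids had 29.98 and 25.3 CPM and adult mCD 15.2 and 17.6 CPM. Both CD organoid libraries stood above all others, and the level was higher than at day 10 (log2 fold change 1.09 ± 0.13 (SE), adjusted p = 8.74e-06) and day 20 (log2 fold change 1.72 ± 0.14 (SE), adjusted p = 2.34e-07), short of 4-fold. Of the 13 tested members of the neurotransmitter and glutamate list, 1 was called higher and 4 lower at day 20 against day 5 (7.69% and 30.8%, against 4.68% and 3.93% of all genes). In CD organoids against day 10 none was called higher and 3 lower (0% and 23.1%, against 4.96% and 5.71%). In adult mCD against CD organoids 5 were called higher and none lower (38.5% and 0%, against 9.84% and 4.50%).

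The 7 lysosomal and intracellular carriers had 1 call lower at day 20 against day 5, 1 higher in each adult comparison and none in CD organoids. A single call is 14.3% of the list, against 3.93% of all genes lower at day 20 and 9.84% and 12.3% higher in adult mCD against CD organoids and day 20. All of these calls were of *Slc36a4*, a high-affinity proline and tryptophan carrier named here after its values were seen, at 6.92 and 7.55 CPM at day 5, at 3.13 and 2.55 CPM at day 10 and at 1.21 and 1.19 CPM at day 20. In CD organoids it was at 1.85 and 1.28 CPM and in adult mCD at 15.9 and 16.2 CPM. *Slc38a9*, the lysosomal arginine sensor of mTORC1, stayed between 16.1 and 24.2 CPM in all 10 libraries, and *Slc36a1* (PAT1), which carries small amino acids with protons, between 22.7 and 53.7 CPM.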

How the data were processed

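The table that the authors deposited holds, for each of the 10 libraries, whole-number counts of reads per gene, RPKM values and scaled counts, a signal they call TMM values. The paper describes trimming of the reads, alignment with STAR to mm10 and counting on GENCODE genes with the E/M model of Partek Flow. Per the labels, the submitters' processing notes name FastQC 0.11.8, cutadapt 2.5, Trimmomatic 0.36, STAR and edgeR 3.28.1. Which of these 2 descriptions holds for the deposited counts is not settled. The paper and the labels name different kits for RNA and libraries. The length behind the deposited RPKM sums the exons of all transcripts of a gene, at a median of 1.97 times the union of its exons, so RPKM was recomputed over the union from GENCODE M21. The deposited RPKM and scaled counts entered no test.

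Tests of the counts were quasi-likelihood tests (edgeR 4.0.16, R 4.3.3). TMM factors ran from 0.792 to 1.12, the prior count was 1, and p-values were adjusted by Benjamini-Hochberg over the 24410 genes with a summed count of at least 10. All 10 libraries entered 1 fit of 5 group means (common dispersion 0.00831). A fold against a group at or under 3 counts in both libraries is a lower bound, for counting error only. Standard errors are approximate, derived from the test statistic. The step was tested on simulated data. Promoter windows are RefSeq's, matched by symbol for 42 members. One gene of the list of partners is not reported here.

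Named are members called in a comparison with a group mean of at least 20 CPM and a fixed set of heavy and light chains; members beyond these are named for family context or after their values were seen. The members, lists and thresholds were chosen with earlier results of these data known. Alternatives changed the scaling, filter, prior count, threshold, tool (DESeq2 1.42.0), libraries in the fit and replicate block. Figures were drawn with matplotlib 3.10.9.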

Additional observations from a re-analysis of the deposited data

How the results depend on the processing

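The counts of members called kept within 1.5 times of their values, under RLE size factors, library totals alone, the filterByExpr filter, DESeq2 and a replicate block, in all 5 comparisons and both directions. With the replicate block, 5 members rather than 4 were called higher at day 20 against day 5. The correlation of deviations between same-numbered libraries lay between -0.0113 and 0.0119. It was taken over all genes tested, those with few counts included. It therefore cannot tell whether same-numbered libraries shared a culture or a batch. Dropping the fold limit, with an adjusted p up to 0.05, gave 10 higher and 19 lower in CD organoids against day 10, 9 and 16 against day 20, 14 and 25 at day 20 against day 5, 31 and 11 in adult mCD against CD organoids and 29 and 12 against day 20. Without a filter on low counts 7 members were called higher at day 20 against day 5, and with a prior count of 5 only 2. In CD organoids against day 10 only 1 member was called higher with a prior count of 5 and when only the 2 groups entered the fit.

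With each library left out in turn, the counts called ranged from 1 to 2 higher and 7 to 9 lower in CD organoids against day 10, 2 to 2 higher and 2 to 3 lower against day 20, 2 to 4 higher and 9 to 10 lower at day 20 against day 5, 17 to 18 higher and 2 to 3 lower in adult mCD against CD organoids, and 16 to 17 higher and 3 to 3 lower against day 20. In such a fit the lone library is assumed to vary like the other groups.

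Differences that were not called changed sign in 13 fits. In adult mCD against day 20 these were *Slc6a17* (-0.12 with library totals alone) and *Slc7a2* (-0.42 with library totals alone, -0.006 without a filter, -0.005 with filterByExpr, and -0.20 to 0.15 with a library left out). In CD organoids against day 10, leaving out a library gave -1.20 to 1.75 for *Slc6a13*, -0.25 to 0.57 for *Slc1a1*, -0.154 to 0.073 for *Slc3a2* and -1.81 to 0.66 for *Slc7a13*, and against day 20 -0.40 to 1.09 for *Slc1a1*. Library totals alone moved the median log2 fold change of all genes to -0.47 in adult mCD against day 20, -0.34 against CD organoids and -0.23 in CD organoids against day 10. The call of *Slc1a3* in adult mCD against CD organoids was lost with library totals alone (1.66) and a prior count of 5 (1.99), and that of *Slc7a10* at day 20 against day 5 with DESeq2, with a prior count of 5 and without any 1 of the 4 libraries. The cause was not tested. Depth limits what can be said of the 15 members below 1 CPM in every group.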

Other observations

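Of 5 listed genes of the osmotic response, 1 was called higher in CD organoids than at day 10, 1 in adult mCD against CD organoids and 3 against day 20 (20%, 20% and 60%, against 4.96%, 9.84% and 12.3% of all genes), and none was called lower. The differences given next for *Nfat5*, *Slc5a3* and *Akr1b3* were all under 4-fold and are not among these calls. *Nfat5*, the tonicity-responsive factor, was lower in adult mCD than in CD organoids, at 471 and 444 CPM against 971 and 1022 (log2 fold change -1.12 ± 0.09 (SE), adjusted p = 1.65e-07), while its known target *Slc5a3*, the myo-inositol carrier, was higher, at 291 and 304 CPM against 107 and 99.9 (log2 fold change 1.52 ± 0.12 (SE), adjusted p = 2.07e-07). *Akr1b3*, the aldose reductase that makes sorbitol, was at 63.8 and 61.7 CPM at day 10 and 84.4 and 90.1 CPM in CD organoids (log2 fold change 0.47 ± 0.08 (SE), adjusted p = 0.000249), and *Slc6a6* rose between the same groups (log2 fold change 0.40 ± 0.07 (SE), adjusted p = 0.000477).

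In adult mCD against CD organoids, 3 of the 18 amino acid response genes were called higher and 2 lower (16.7% and 11.1%, against 9.84% and 4.50% of all genes). At the looser limit 7 were higher and 9 lower (38.9% and 50%, against 26.1% and 23.8%). *Psat1* and *Pycr1*, genes of serine and proline synthesis in this list, were lowest in adult mCD. The difference in *Psat1* from CD organoids given next was short of 4-fold. *Psat1* went from 462 and 459 CPM at day 5 to 116 and 114 CPM in CD organoids and 36.9 and 40.6 CPM in adult mCD (log2 fold change -1.57 ± 0.09 (SE), adjusted p = 4.05e-09 against CD organoids), and *Pycr1*, which makes proline, from 38.2 and 36.4 CPM through 3.56 and 3.05 to 0.603 and 0.786 (log2 fold change -2.17 ± 0.27 (SE), adjusted p = 1.25e-05). *Cbs* and *Cth*, the enzymes that turn homocysteine into cysteine, were higher in adult mCD than in CD organoids, *Cbs* at 70.8 and 88.04 CPM against 0.214 and 0.561 (log2 fold change 7.52 ± 0.33 (SE), adjusted p = 3.5e-10) and *Cth* at 68.7 and 84.5 against 14.95 and 14.2 (log2 fold change 2.39 ± 0.15 (SE), adjusted p = 1.24e-08), groups in which the cystine carrier *Slc7a11* was at 2.41 and 3.30 CPM and 3.77 and 2.97 CPM.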
